A study of Rattus norvegicus with 12 samples.

Results

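The circadian clock genes of rat liver were followed over the first 24 h after partial hepatectomy (PH), the surgical removal of most of the liver. The 10 genes named for the purpose were ARNTL, CLOCK, NPAS2, PER1, PER2, PER3, CRY1, NR1D1, NR1D2 and DBP. They were looked up by symbol in a table of 14692 genes, where 9 of the 10 were found, and NR1D2 was not analysed here. RNA sequencing had been done on whole liver from 3 groups of rats at 0, 4, 12 and 24 h after PH, and the values are RPKM, read counts scaled by transcript length and library size. Of the 9 genes found, 8 averaged 1 RPKM or more in the 12 columns and entered the test across the 8459 genes that reached that level. NPAS2, averaging 0.815 RPKM, did not.

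All rats were male Sprague Dawley, 4 to 5 months old, and all of them, Control included, carried a duodenal catheter with continuous saline. A sham operation was done on Control rats 24 h ahead of PH. Both other groups had a biliary fistula (BF), a catheter that drains bile out of the body, placed at that time. One of these also received bile acid (BA), with sodium taurocholate infused through the duodenal catheter beginning 12 h ahead of PH (0.5 mg per g of body weight each day). The columns are called here by the first letters of their titles, Control, BF and BA. The study's own figures use BF for the drained rats and BA for drained rats given taurocholate, whereas the sample descriptions state the reverse, so which of these groups received bile acid is uncertain. CYP7A1, the rate-limiting enzyme of bile acid synthesis, was higher in BF than in both other groups at every time. At 0, 4, 12 and 24 h CYP7A1 stood at 387, 13.8, 136 and 334 RPKM in BF, 54.9, 1.81, 3.17 and 68.8 RPKM in BA, and 60.0, 4.59, 8.53 and 57.3 RPKM in Control.

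Each group and time has 1 column, in which the authors averaged 2 runs, one from 1 rat and the other from the pooled RNA of 3 rats. No spread between the 4 rats can be computed from it, and the read depth is unknown. The hour of day at which livers were taken is not given in the sources used here, so hours after PH and hours of the day cannot be told apart in these columns.

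Hepatocyte markers were abundant in every column, their sum running from 71308 to 337418 RPKM over 5 genes found. The highest sum was in BA at 4 h, where albumin alone took 30.9% of all RPKM against 5.60% to 13.4% in the other 11 columns. The 6 pancreatic acinar markers summed to between 0.12 and 1.94 RPKM in 11 columns and to 124 RPKM in BF at 12 h. Cholangiocyte markers summed to between 4.95 and 13.5 RPKM, macrophage markers to between 85.5 and 210 RPKM, endothelial markers to between 31.0 and 55.1 RPKM and stellate cell markers to between 9.32 and 25.3 RPKM. The part of these differences in the results on clock genes was not tested, and in whole liver fewer cells of a type and less RNA per cell cannot be told apart.

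The circadian clock is a loop of transcription that runs through about a day in nearly every cell. ARNTL (also called BMAL1) pairs with CLOCK or NPAS2 and switches on genes through a DNA element called the E-box, among them the PER and CRY genes, whose proteins return to block the pair. NR1D1 (REV-ERBα) is switched on by the same pair and represses ARNTL through a second element, the ROR element, while DBP acts on the D-box. In rodent liver ARNTL and its targets NR1D1 and DBP peak at nearly opposite hours, and the liver clock is reset by feeding and by glucocorticoids.

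To show where these elements lie, promoters of the members were read from RefSeq (rat build GRCr8), which gives 250 bases before each start and 50 after it. It has an entry for 9 of the 10 members, and 3 of the 9 held a match to one of the motifs searched on both strands. The motifs were the E-box CACGTG, its variant CACGTT, the D-box as TTATGTAA or TTACGTAA, and the ROR element as TAGGTCA or TAGGTTA. These occur in 6.42%, 4.83%, 1.01% and 4.16% of the 33469 rat promoters of that length. The shares are per motif and per promoter, whereas the 3 of 9 counts genes, with 11 promoters, over all the motifs. The share of all genes with any of the motifs was not computed, so the 3 of 9 is not read as a result. The 250 bases before the start are given 5′ to 3′ for the members with a match, the matches in capitals, because they stand for the 3 inputs of the loop. No match overlaps another. Bmal1 (the RefSeq name of ARNTL, chr1:176766078-176766327, + strand) holds a pair of ROR elements, 52 and 16 bases before the start. Per2 (chr9:99496994-99497243, - strand) holds a D-box 192 bases and an E-box variant 62 bases before the start. Nr1d1 (chr10:84229455-84229704, - strand) holds an E-box 191 bases before the start shown, and a second Nr1d1 start holds an E-box variant. A match describes the letters only and shows no binding.
Bmal1: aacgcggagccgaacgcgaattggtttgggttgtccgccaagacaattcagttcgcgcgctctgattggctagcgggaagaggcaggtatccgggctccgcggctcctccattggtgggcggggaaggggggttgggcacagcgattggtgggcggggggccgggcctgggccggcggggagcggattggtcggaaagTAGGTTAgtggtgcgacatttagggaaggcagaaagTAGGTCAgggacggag
Per2: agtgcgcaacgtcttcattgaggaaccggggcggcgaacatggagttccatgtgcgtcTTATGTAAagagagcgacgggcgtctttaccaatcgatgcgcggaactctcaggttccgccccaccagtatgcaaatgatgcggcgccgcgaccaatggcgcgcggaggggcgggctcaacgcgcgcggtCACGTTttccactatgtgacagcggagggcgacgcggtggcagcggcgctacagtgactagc
Nr1d1: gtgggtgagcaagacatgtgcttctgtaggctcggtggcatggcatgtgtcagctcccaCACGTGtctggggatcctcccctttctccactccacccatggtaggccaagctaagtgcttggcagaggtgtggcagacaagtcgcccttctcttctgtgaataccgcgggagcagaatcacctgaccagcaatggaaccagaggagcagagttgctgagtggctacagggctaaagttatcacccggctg

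Over the 3 groups together, DBP, PER2 and PER3 were lower 4 h after PH than at 0 h, NR1D1 joined them at 12 h, and DBP and NR1D1 were still lower at 24 h. CLOCK was the single member that was higher, at 24 h, and this call was lost after rescaling. These contrasts come from limma on log2(RPKM + 1), a scale that understates changes of weak genes, with group and time as additive terms and p-values adjusted by Benjamini-Hochberg over 8459 genes. The groups serve as the repeats of each time, and their departure from parallel courses is the error. The p-values therefore measure the spread between groups, not between rats, and the 3 time contrasts share their 0 h columns.

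At 4 h 3 of the 8 members were called lower, where 32.4% of all genes tested were, and none higher, where 12.9% were. That share is near the background. At 12 h 4 of 8 were called lower against 22.5% of all genes, and none higher against 9.03%. At 24 h 2 of 8 were called lower against 5.54% of all genes, and 1 higher against 30.6%. The members were chosen with earlier results of these data known, so these counts are a description. The median log2 ratio of the 8 members was -0.79, -0.54 and -0.12 at 4, 12 and 24 h, beside -0.20, -0.12 and 0.21 for all genes. Once each column was divided by its median gene, the calls over all genes at 24 h went from 2587 higher and 469 lower to 874 higher and 1448 lower, and those of the members to 2 lower and none higher.

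**Figure D1:**
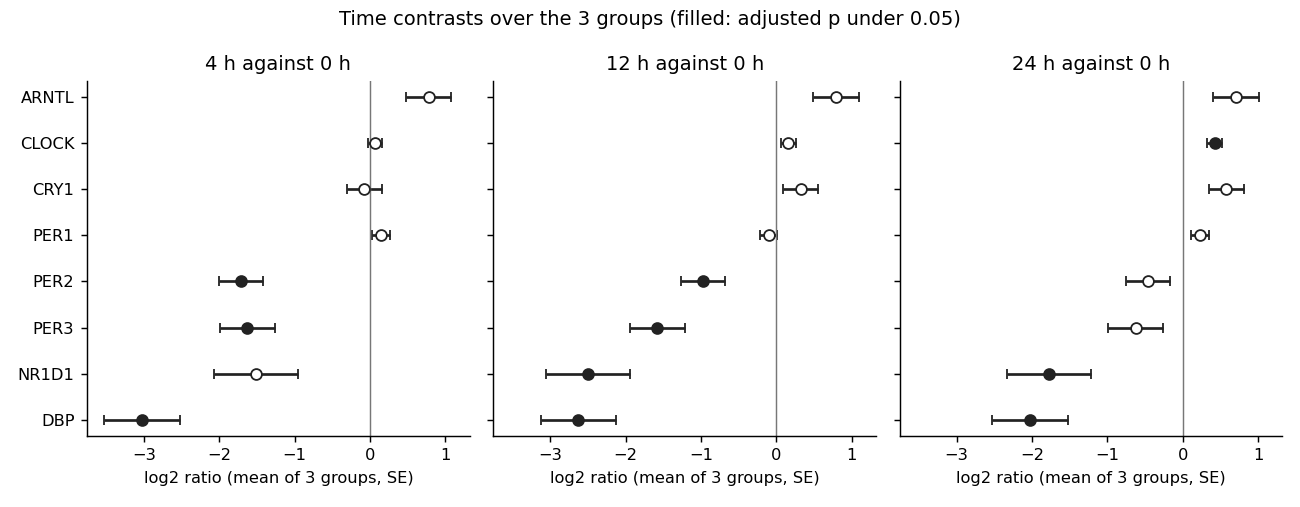
Log2 ratio of RPKM + 1 (x axis) of 8 clock genes (y axis) at 4, 12 and 24 h against 0 h, as the limma estimate over the Control, BF and BA groups with its standard error, filled where the adjusted p is under 0.05. DBP lies farthest to the left at 4 h (-3.02), 12 h (-2.63) and 24 h (-2.03), while CLOCK and PER1 lie close to 0 throughout.

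ARNTL, the activator without which the loop does not turn, averaged 8.32 RPKM over the 12 columns. In Control, ARNTL was at 4.72, 5.74, 11.2 and 5.11 RPKM at 0, 4, 12 and 24 h. In BF, ARNTL was at 5.84, 10.6, 8.09 and 15.1 RPKM at 0, 4, 12 and 24 h. In BA, ARNTL was at 4.31, 12.3, 8.58 and 8.17 RPKM at 0, 4, 12 and 24 h. It peaked at 12 h in Control, at 24 h in BF and at 4 h in BA, and its lowest column was BA at 0 h. The ratio of highest to lowest time within a group was largest in BA, by 1.33 on the log2 scale, next to 1.24 in BF and 1.10 in Control. Over the groups, the log2 ratio to 0 h was 0.78 ± 0.30 (SE) at 4 h, 0.79 ± 0.30 at 12 h and 0.71 ± 0.30 at 24 h, and none passed (adjusted p = 0.0623, 0.0771 and 0.0962). The 4 h contrast passed when columns were rescaled (adjusted p = 0.0493) and without the Control columns (0.0250), the 12 h columns (0.0412), the 24 h columns (0.0495) or a single column, namely Control 4 h (0.0428), Control 12 h (0.0315), BF 12 h (0.0497) or BF 24 h (0.0384). The 12 h contrast passed without BF 12 h (0.0436) or BF 24 h (0.04995).

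CLOCK, the partner of ARNTL, varied little between columns. In Control, CLOCK was at 11.1, 10.03, 12.2 and 13.5 RPKM at 0, 4, 12 and 24 h. In BF, CLOCK was at 9.04, 10.9, 10.2 and 13.6 RPKM at 0, 4, 12 and 24 h. In BA, CLOCK was at 9.38, 9.97, 10.8 and 13.3 RPKM at 0, 4, 12 and 24 h. The highest value of each group was at 24 h, and at that time they stood between 13.3 and 13.6 RPKM. CLOCK had a range of 0.54 on the log2 scale over the 12 columns, the 7969th largest of 8459 genes, where the median gene ranged over 1.10. At 24 h against 0 h the log2 ratio was 0.43 ± 0.10 (adjusted p = 0.0103), and at 4 and 12 h it was 0.07 and 0.16 (adjusted p = 0.611 and 0.251). After rescaling the 24 h ratio was 0.12 (adjusted p = 0.407), and it also missed the threshold without the Control columns (0.0620), the BF columns (0.106), the BA columns (0.0684), BF 0 h (0.0519) or BF 24 h (0.0520).

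NPAS2 takes the place of CLOCK in some tissues. In Control, NPAS2 was at 2.01, 0.75, 2.24 and 0.48 RPKM at 0, 4, 12 and 24 h. In BF, NPAS2 was at 0.88, 0.31, 0.36 and 0.59 RPKM at 0, 4, 12 and 24 h. In BA, NPAS2 was at 0.26, 0.86, 0.79 and 0.25 RPKM at 0, 4, 12 and 24 h. Values above 1 RPKM occurred in Control at 0 and 12 h, and nowhere else. NPAS2 was at or below 0.88 RPKM in all 8 columns of BF and BA.

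**Figure D2:**
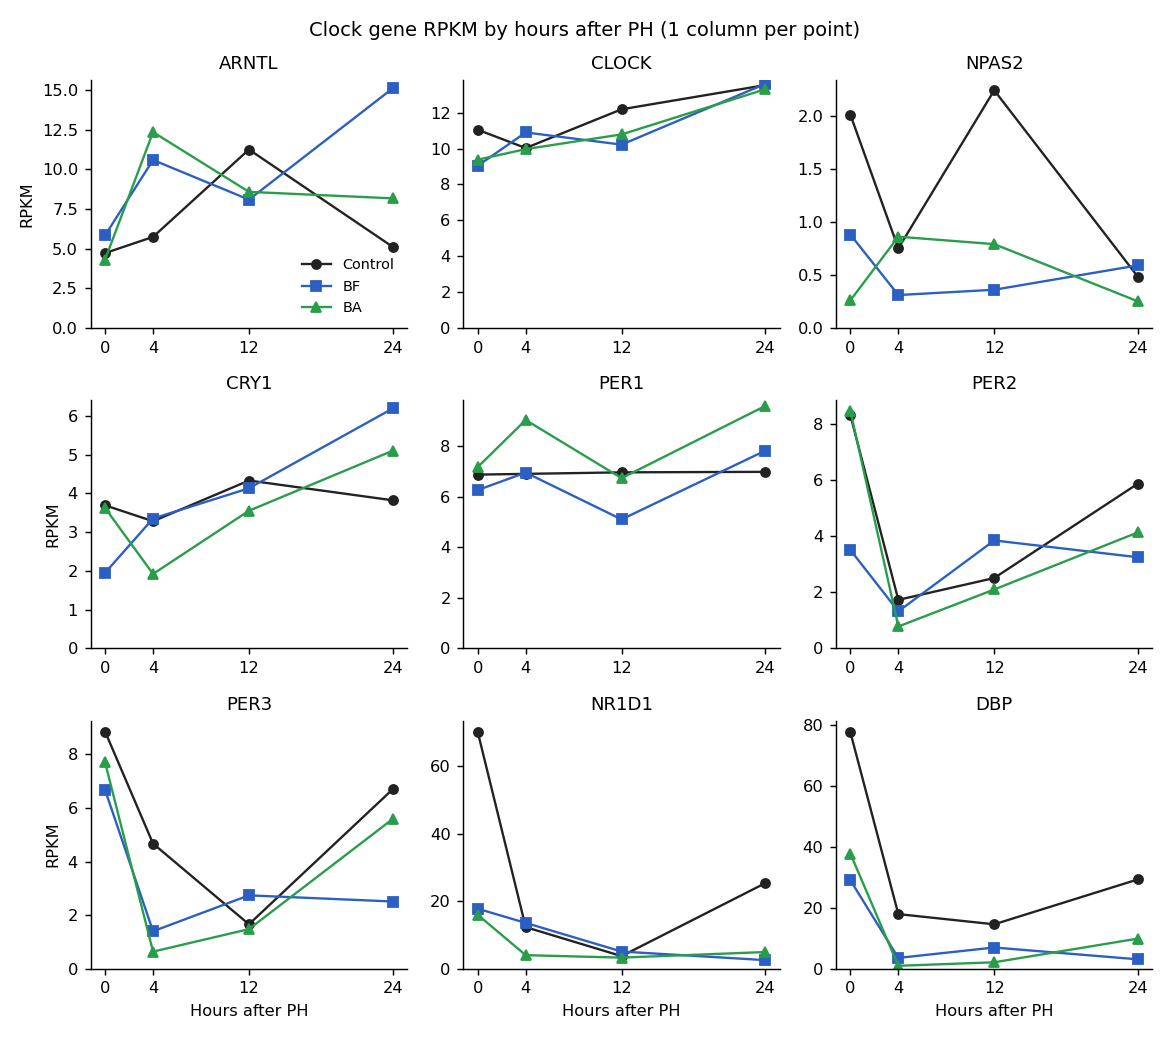
RPKM (y axis, from 0) of the 9 clock genes found, by hours after PH (x axis), with 1 line for each of Control, BF and BA and 1 column of the table per point. NR1D1 and DBP begin near 70.0 and 77.6 RPKM in Control and drop in the 4 h and 12 h columns, whereas PER1 stays between 6.87 and 6.98 RPKM in Control.

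Among the repressors, PER2 and PER3 were lower early after PH while PER1 and CRY1 passed no contrast. In Control, PER2 was at 8.32, 1.73, 2.51 and 5.88 RPKM at 0, 4, 12 and 24 h. In BF, PER2 was at 3.51, 1.32, 3.85 and 3.25 RPKM at 0, 4, 12 and 24 h. In BA, PER2 was at 8.47, 0.78, 2.10 and 4.14 RPKM at 0, 4, 12 and 24 h. The Control and BA courses of PER2 both start above 8 RPKM and have their lowest value at 4 h, and BF starts lower and is back above its 0 h level at 12 h. The log2 ratio was -1.71 ± 0.29 at 4 h (adjusted p = 0.00204), -0.97 ± 0.29 at 12 h (adjusted p = 0.0325) and -0.47 ± 0.29 at 24 h (adjusted p = 0.234). The 4 h call was kept under all 21 alternatives. Some of these, such as leaving out 12 h or 24 h columns, cannot move the 4 h estimate and change only its error. The 12 h call was lost with no filter (adjusted p = 0.0586) and without the Control columns (0.264), the BA columns (0.209), the 24 h columns (0.0644), Control 0 h (0.112), Control 12 h (0.146), BA 0 h (0.124) or BA 12 h (0.109), and without BF 0 h PER2 was lower at 24 h also, by a log2 ratio of -0.84 (0.0496).

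PER3, which modulates the same repressor complex, lay below its 0 h level at all 3 later times in every group. In Control, PER3 was at 8.85, 4.67, 1.66 and 6.70 RPKM at 0, 4, 12 and 24 h. In BF, PER3 was at 6.67, 1.40, 2.74 and 2.51 RPKM at 0, 4, 12 and 24 h. In BA, PER3 was at 7.70, 0.64, 1.48 and 5.59 RPKM at 0, 4, 12 and 24 h. The lowest value came at 12 h in Control and at 4 h in both other groups. PER3 fell by 1.63 ± 0.37 on the log2 scale at 4 h (adjusted p = 0.00702) and by 1.58 ± 0.37 at 12 h (adjusted p = 0.0124), and at 24 h its log2 ratio was -0.63 ± 0.37 (adjusted p = 0.209). The 4 h call was lost without the BA columns (adjusted p = 0.0738), and the 12 h call without the Control columns (0.0562), the BA columns (0.0535) or Control 12 h (0.0640).

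PER1, the period gene that answers fastest to hormones and feeding, was the steadiest member in Control. In Control, PER1 was at 6.87, 6.90, 6.96 and 6.98 RPKM at 0, 4, 12 and 24 h. In BF, PER1 was at 6.26, 6.95, 5.10 and 7.82 RPKM at 0, 4, 12 and 24 h. In BA, PER1 was at 7.17, 9.03, 6.73 and 9.59 RPKM at 0, 4, 12 and 24 h. Its 4 Control values span 0.02 on the log2 scale, the smallest range of all 8459 genes in that group. BF and BA ranged over 0.53 and 0.45. No time contrast passed, with log2 ratios of 0.14, -0.10 and 0.23 (adjusted p = 0.338, 0.524 and 0.159).

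CRY1, the strongest repressor of the ARNTL and CLOCK pair, was weakly expressed. In Control, CRY1 was at 3.69, 3.28, 4.33 and 3.82 RPKM at 0, 4, 12 and 24 h. In BF, CRY1 was at 1.95, 3.35, 4.13 and 6.19 RPKM at 0, 4, 12 and 24 h. In BA, CRY1 was at 3.62, 1.92, 3.55 and 5.10 RPKM at 0, 4, 12 and 24 h. In BF each later column was higher than the one before it, BA dipped at 4 h, and Control stayed between 3.28 and 4.33 RPKM. The log2 ratio was -0.08 at 4 h, 0.32 at 12 h and 0.58 at 24 h (adjusted p = 0.807, 0.324 and 0.0815), and the last passed without Control 24 h (0.81, adjusted p = 0.0436).

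NR1D1 is the nuclear receptor that represses ARNTL and also genes of lipid and bile acid metabolism. On the log2(RPKM + 1) scale it was the member that differed most between Control and the other groups before PH. In Control, NR1D1 was at 70.03, 12.3, 3.75 and 25.4 RPKM at 0, 4, 12 and 24 h. In BF, NR1D1 was at 17.8, 13.6, 5.10 and 2.56 RPKM at 0, 4, 12 and 24 h. In BA, NR1D1 was at 15.97, 4.03, 3.30 and 4.96 RPKM at 0, 4, 12 and 24 h. The Control column at 0 h stood far above the rest, and the 8 columns of BF and BA were all at or below 17.8 RPKM. In Control NR1D1 was at 5.35% of its 0 h value at 12 h and at 36.2% at 24 h, whereas in BF each later column was lower than the one before it, ending at 14.4%. Over the groups the log2 ratio was -1.51 ± 0.56 at 4 h (adjusted p = 0.0512), -2.50 ± 0.56 at 12 h (adjusted p = 0.0102) and -1.78 ± 0.56 at 24 h (adjusted p = 0.0340). The range of NR1D1 over the 12 columns, 4.32 on the log2 scale, was the 123rd largest of 8459. 

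Several NR1D1 calls changed when columns were left out. At 4 h NR1D1 passed without the BF columns (-2.08, adjusted p = 0.0297), the 12 h columns (0.0423), the 24 h columns (0.0309), Control 12 h (0.0284), Control 24 h (0.0357), BF 4 h (-2.04, 0.0247) or BF 24 h (0.0261). At 12 h it was lost without the Control columns (-1.80, adjusted p = 0.0578) or the BA columns (0.0555). At 24 h it was lost with no filter (0.0610) and without the BF columns (0.101), the BA columns (0.115), Control 0 h (0.128), BF 0 h (0.0686), BF 24 h (-1.13, 0.144), BA 0 h (0.0652) or BA 24 h (0.0702).

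DBP, the activator that carries the clock's rhythm to detoxification genes of the liver, had the widest range of the members over the 12 columns, although in Control alone NR1D1 had the wider range (92nd largest of all genes, next to 461st for DBP). In Control, DBP was at 77.6, 17.9, 14.6 and 29.3 RPKM at 0, 4, 12 and 24 h. In BF, DBP was at 29.1, 3.57, 6.98 and 3.10 RPKM at 0, 4, 12 and 24 h. In BA, DBP was at 37.8, 0.98, 2.13 and 9.92 RPKM at 0, 4, 12 and 24 h. All 3 groups had their highest value at 0 h, Control lay above both other groups at every time, and the lowest of all columns was BA at 4 h. That column is also the one in which albumin took 30.9% of all RPKM, and after rescaling the ratio of 4 h to 0 h in BA was -4.16 on the log2 scale, next to -4.29 before it. Over the groups DBP fell by 3.02 ± 0.50 at 4 h (adjusted p = 0.00180), by 2.63 ± 0.50 at 12 h (adjusted p = 0.00536) and by 2.03 ± 0.50 at 24 h (adjusted p = 0.0134) on the log2 scale. Its range of 5.31 over the 12 columns was the 42nd largest of 8459. The 4 h and 12 h calls were kept under all 21 alternatives. The 24 h call was lost without the Control columns (adjusted p = 0.0596), the BF columns (0.0969), BF 0 h (0.0512), BF 24 h (-1.43, 0.0563) or BA 0 h (0.0514).

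The comparison of 24 h with 0 h in each group asks whether the clock genes were back at their starting level a day after PH. In Control ARNTL, CRY1 and PER1 were within 0.10 of 0 h on the log2 scale, while NR1D1 and DBP were at 36.2% and 37.8% of 0 h. PER1 and CRY1 had moved little at any time in Control, ranging over 0.02 and 0.32 on the log2 scale. In BF NR1D1 and DBP were at 14.4% and 10.7%, and ARNTL and CRY1 were at 259% and 317% of 0 h. For these 4 genes BA lay between the other groups, with NR1D1 at 31.1%, DBP at 26.3%, ARNTL at 190% and CRY1 at 141%. It did not for PER2 (48.9% in BA, 70.7% in Control and 92.6% in BF), PER1 (134%, 102% and 125%) or NPAS2 (96.2%, 23.9% and 67.0%). With 1 column each, these ratios have no replicate check and no test.

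Past 2-fold at 24 h were 2 of 8 members lower and none higher in Control, where 3.03% of all genes were that much lower and 8.29% higher. In BF 3 members were 2-fold lower and 2 higher, against 1.88% and 9.27% of all genes, the lower ones being NR1D1, DBP and PER3, the last with a log2 ratio of -1.13. In BA 2 members were 2-fold lower and none higher, against 1.41% and 3.83%. The median gene stood 0.21 higher in Control, 0.28 in BF and 0.15 in BA. After rescaling, ARNTL and CRY1 in BF were at 0.86 and 0.96, under 2-fold, their small positive ratios in Control (0.10 and 0.04) became -0.18 and -0.22, and PER2 in BA, at -0.88 before, passed 2-fold at -1.08. 

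**Figure D3:**
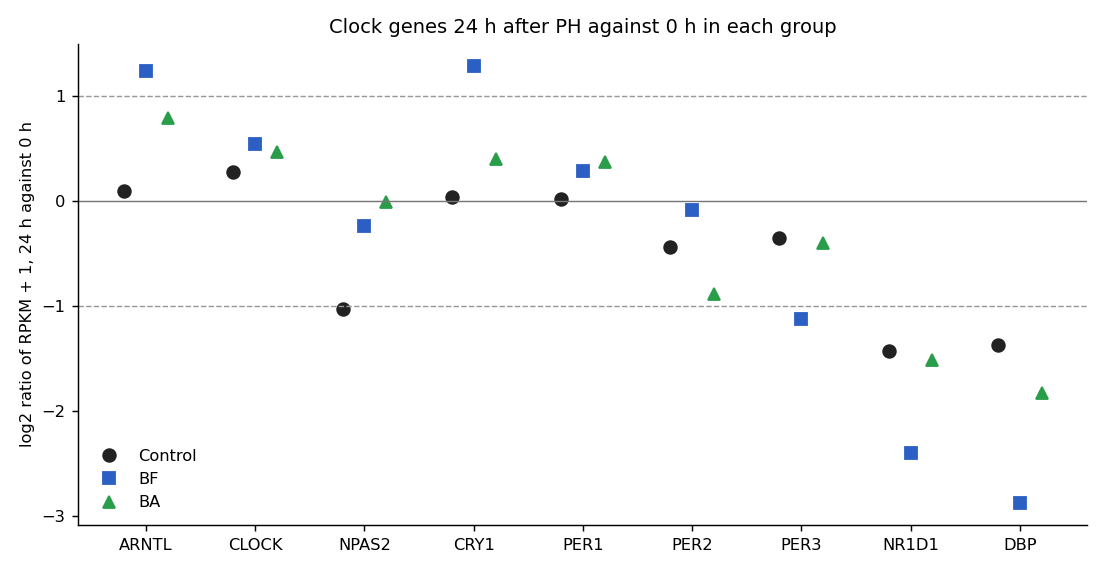
Log2 ratio of RPKM + 1 at 24 h against 0 h (y axis) for the 9 clock genes found (x axis), 1 point for each of Control, BF and BA, with dashed lines at 2-fold. NR1D1 and DBP lie below the lower line in all 3 groups, lowest in BF at -2.40 and -2.87, and ARNTL and CRY1 lie above the upper line in BF alone.

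The groups already differed at 0 h, after the biliary surgery and before PH. NR1D1 in BF and BA was lower than in Control by log2 ratios of -1.92 and -2.07, and DBP by -1.39 and -1.02. PER2 in BF was lower than in Control (-1.05) and than in BA (-1.07), with BA and Control alike at 8.47 and 8.32 RPKM. Past 2-fold were 3 of 8 members lower in BF than Control against 2.16% of all genes, 2 lower in BA than Control against 2.15%, and 1 lower in BF than BA against 1.39%. After rescaling, PER2 in BF (-0.87 against Control, -0.98 against BA) and DBP in BA (-0.92) were under 2-fold.

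At 4 h DBP and PER3 were lower in BF than in Control, by -2.05 and -1.24, and lower still in BA, by -3.26 and -1.79. NR1D1 was level between BF and Control (0.13) and lower in BA than in Control (-1.40) and than in BF, the ratio of BF to BA being 1.53. Past 2-fold were 2 members lower in BF than Control against 3.16% of all genes, 3 lower in BA than Control against 5.26%, and 2 higher in BF than BA (NR1D1 and DBP) against 2.39%. ARNTL was higher in BA than in Control by 0.99, and by 1.22 after rescaling. At 12 h no member was past 2-fold between BF and Control, where 3.52% of all genes were, DBP standing at -0.97. DBP was the 1 member lower in BA than Control (-2.32, against 1.12% of all genes) and the 1 higher in BF than BA (1.35, against 1.16%).

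By 24 h NR1D1 and DBP in BF were each lower than in Control by -2.89, PER3 was lower by -1.13 and ARNTL higher by 1.40. In BA NR1D1 was lower than in Control by -2.14 and DBP by -1.47. Between BF and BA, DBP was lower in BF (-1.41), and ARNTL, at 0.81, did not reach 2-fold. The counts past 2-fold were 3 lower and 1 higher for BF against Control (1.31% and 0.768% of all genes), 2 lower for BA against Control (1.32%) and 1 lower for BF against BA (0.969%). PER3 in BF came to -0.97 after rescaling.

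Averaged over the 4 times, no member passed the limma contrast between groups. For BF against Control 0 of 8 were called, where 0.804% of all genes were, and 1 had an unadjusted p under 0.05. For BA against Control 0 of 8 were called (0.0709% of all genes) with 2 at an unadjusted p under 0.05, and for BF against BA 0 of 8 (0.0118%) with 1. DBP came nearest, at -1.82 ± 0.43 in BF (adjusted p = 0.0853) and -2.02 ± 0.43 in BA (adjusted p = 0.0909) against Control, lower than Control at 4 of 4 times in each. NR1D1 was at -1.08 ± 0.48 (adjusted p = 0.231) and -1.44 ± 0.48 (adjusted p = 0.153). Both contrasts share the Control columns. Between BF and BA, DBP differed by 0.19 ± 0.43 (adjusted p = 0.915) and NR1D1 by 0.36 ± 0.48 (adjusted p = 0.850).

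The clock genes of each column can be put into a single number, the mean log2(RPKM + 1) of ARNTL, CLOCK, NPAS2 and CRY1 minus that of PER1, PER2, PER3, NR1D1 and DBP. The sets were meant as genes that peak at opposite hours of the day, not as activators and repressors. CRY1, a repressor, was placed in the first set. In Control the number was -1.91, -0.70, 0.38 and -1.35 at 0, 4, 12 and 24 h. In BF it was -1.28, 0.10, -0.11 and 0.67 at 0, 4, 12 and 24 h. In BA it was -1.67, 0.77, 0.53 and -0.41 at 0, 4, 12 and 24 h. The number was lowest at 0 h in all 3 groups. It was highest at 12 h in Control, at 4 h in BA and at 24 h in BF. Its sign depends on which genes are in the sets, so whether a column lies above or below 0 is not read here. From 0 to 24 h the number was up by 0.56 in Control, 1.95 in BF and 1.26 in BA. It describes the columns only, and DBP and NR1D1 weigh heavily in it. Without DBP these differences were 0.40, 1.54 and 1.01, and without CLOCK and CRY1 they were 0.25, 1.74 and 1.24. Without NPAS2, which is below the 1 RPKM filter, they were 0.85, 2.26 and 1.40, a choice added after seeing the data.

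**Figure D4:**
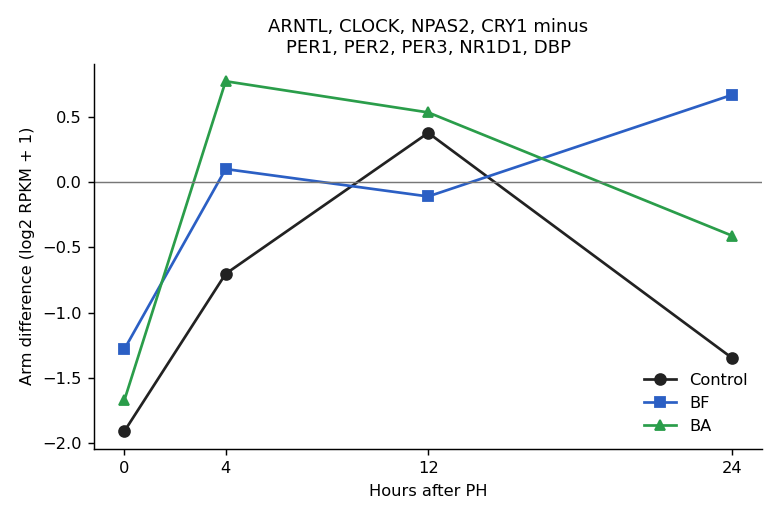
Mean log2(RPKM + 1) of ARNTL, CLOCK, NPAS2 and CRY1 minus that of PER1, PER2, PER3, NR1D1 and DBP (y axis) by hours after PH (x axis), 1 line each for Control, BF and BA. At 24 h Control lies at -1.35, BA at -0.41 and BF at 0.67.

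Other clock genes, most but not all of them transcription factors, were read from a list of 13, of which 8 were in the table and tested. This list too was chosen with earlier results of these data known, so its counts are a description. At 4 h 1 of 8 was called higher and 3 lower, and at 12 h none higher and 3 lower. At 24 h 2 were higher, TIMELESS and TIPIN, and 1 lower. The shares of all genes called were 12.9% higher and 32.4% lower at 4 h, 9.03% and 22.5% at 12 h, and 30.6% and 5.54% at 24 h, so the 3 lower at 4 h and the 2 higher at 24 h are near the background. CRY2, the second cryptochrome, had log2 ratios of -1.64 ± 0.20 at 4 h (adjusted p = 0.000550) and -1.18 ± 0.20 at 12 h (adjusted p = 0.00325). In Control, CRY2 was at 11.4, 3.73, 3.31 and 6.78 RPKM at 0, 4, 12 and 24 h. In BF, CRY2 was at 10.3, 3.08, 5.58 and 6.76 RPKM at 0, 4, 12 and 24 h. In BA, CRY2 was at 10.8, 1.82, 4.04 and 7.92 RPKM at 0, 4, 12 and 24 h. The lowest value was at 4 h in BF and BA and at 12 h in Control, and no group had regained its 0 h level by 24 h. TEF, a relative of DBP that binds the same D-box, had log2 ratios of -1.64 ± 0.38 at 4 h (adjusted p = 0.00821) and -1.86 ± 0.38 at 12 h (adjusted p = 0.00743). In Control, TEF was at 26.5, 12.9, 3.98 and 15.9 RPKM at 0, 4, 12 and 24 h. In BF, TEF was at 19.4, 6.96, 8.25 and 9.73 RPKM at 0, 4, 12 and 24 h. In BA, TEF was at 23.2, 3.08, 5.12 and 15.3 RPKM at 0, 4, 12 and 24 h. As with PER3, the lowest TEF value was at 12 h in Control and at 4 h in BF and BA.

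NFIL3, a repressor at the D-box, was chosen after its values were seen. In Control, NFIL3 was at 10.4, 60.3, 37.05 and 19.6 RPKM at 0, 4, 12 and 24 h. In BF, NFIL3 was at 31.7, 51.5, 27.3 and 37.3 RPKM at 0, 4, 12 and 24 h. In BA, NFIL3 was at 23.2, 87.03, 30.2 and 32.9 RPKM at 0, 4, 12 and 24 h. Every group had its highest NFIL3 value at 4 h. Over the groups NFIL3 was 1.66 ± 0.33 higher at 4 h on the log2 scale (adjusted p = 0.00411). TIMELESS and TIPIN, a pair named for the clock that also protects replication forks, rose at 24 h by 1.38 ± 0.34 (adjusted p = 0.0130) and 0.91 ± 0.16 (adjusted p = 0.00305), TIMELESS standing at 12.3 RPKM for Control then, 7.20 for BF and 7.44 for BA. At 4 h TIMELESS was also among the genes lower, by -1.08 ± 0.34 (adjusted p = 0.0280).

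CIART, a repressor of the ARNTL and CLOCK pair, was listed under the symbol RGD1566380. Its promoter is shown because it carries 3 E-boxes, 93, 35 and 21 bases before the start (chr2:186112247-186112496, - strand, GRCr8, from RefSeq).
Ciart: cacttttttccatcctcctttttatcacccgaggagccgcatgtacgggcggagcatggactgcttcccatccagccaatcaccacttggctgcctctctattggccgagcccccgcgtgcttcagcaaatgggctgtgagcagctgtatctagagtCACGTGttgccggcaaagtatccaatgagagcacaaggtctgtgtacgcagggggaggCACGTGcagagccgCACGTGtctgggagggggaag

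In Control, RGD1566380 was at 5.14, 3.64, 1.17 and 1.94 RPKM at 0, 4, 12 and 24 h. In BF, RGD1566380 was at 1.01, 0.65, 0.60 and 0.35 RPKM at 0, 4, 12 and 24 h. In BA, RGD1566380 was at 2.29, 0.58, 0.49 and 0.58 RPKM at 0, 4, 12 and 24 h. Control at 0 h was the highest RGD1566380 column, as it was for NR1D1 and DBP, and each time was higher in Control than in BF or BA. CIART fell by 0.99 ± 0.22 at 12 h (adjusted p = 0.0110) and by 0.90 ± 0.22 at 24 h (adjusted p = 0.0140). Averaged over times it was lower in BF than in Control, by -1.17 ± 0.19 (adjusted p = 0.0392), and stood at -0.97 ± 0.19 in BA against Control (adjusted p = 0.0841). Of the 11 calls of this list, those of CRY2 at 4 and 12 h and of TEF at 12 h were kept under all 21 alternatives. TEF and NFIL3 at 4 h were lost only without the BA columns (adjusted p = 0.0780 and 0.0576), TIPIN without the Control or BF columns, and the CIART call against Control was kept under 7.

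**Figure D5:**
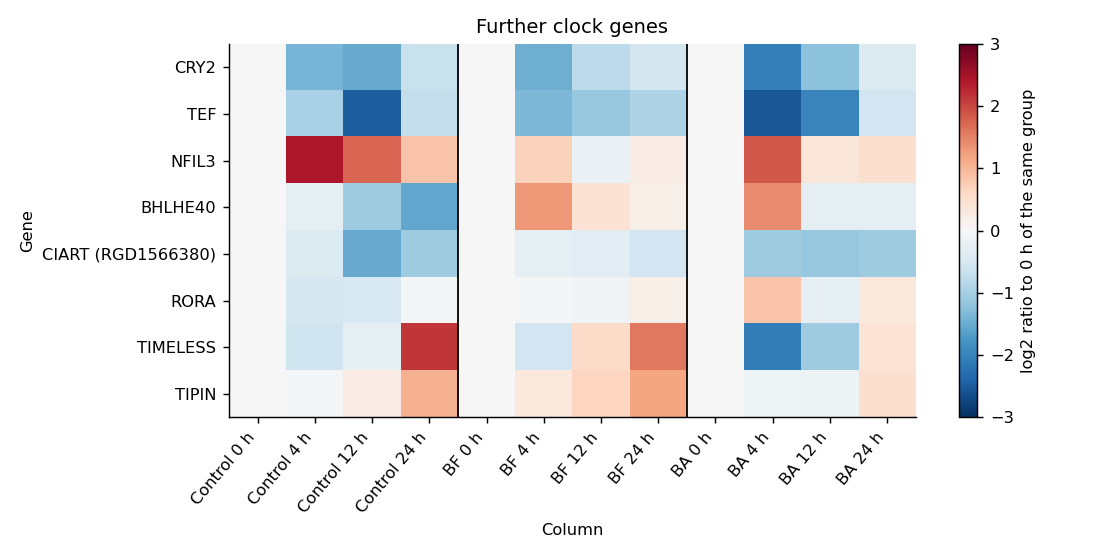
Log2 ratio of RPKM + 1 to the 0 h column of the same group (color, red higher and blue lower) for 8 further clock genes (y axis) in the 12 columns (x axis). CRY2 and TEF are lower in every column after 0 h, NFIL3 is highest at 4 h in each group, and TIMELESS is highest at 24 h in Control, BF and BA.

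Clock kinases and ubiquitin ligases set the lifetime of the PER and CRY proteins. Averaged over the groups, these genes differed from 0 h by less than 2-fold wherever they passed. In Control alone, CSNK1E went from 5.86 RPKM at 0 h to 12.7 RPKM at 24 h, past 2-fold. Of 9 tested, 3 were called higher and 2 lower at 4 h, 3 lower at 12 h and 4 higher at 24 h, and after rescaling 3 and 1, none, and 1. Of all genes 12.9% were called higher and 32.4% lower at 4 h, 22.5% lower at 12 h and 30.6% higher at 24 h, and with 9 genes nothing particular to the list is read from these counts. The 24 h calls were CSNK1E (0.81, adjusted p = 0.00401), PRKAA1 (0.59, adjusted p = 0.0170), CSNK1A1 (0.42, adjusted p = 0.00908) and CSNK1D (0.27, adjusted p = 0.0439), of which CSNK1E alone passed after rescaling (0.50, adjusted p = 0.0477). PRKAA2 (-0.50, adjusted p = 0.0270), BTRC (-0.40, adjusted p = 0.0355) and GSK3B (-0.37, adjusted p = 0.0494) were lower at 12 h, none of them after rescaling. The 4 h calls were CSNK1E, PRKAA1 and CSNK1A1 higher and BTRC and GSK3B lower, all but GSK3B also after rescaling. After it CSNK1D at 24 h was at -0.05, the opposite direction. BTRC at 4 h was the single one of these 12 calls kept under all 21 alternatives.

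Genes known to cycle in liver downstream of the clock were called lower at 12 h in 6 of 13 cases and higher in none, with a median log2 ratio of -0.96 against -0.12 for all genes. Of all genes 22.5% were called lower at 12 h. The list was chosen with earlier results of these data known, so its counts are a description. At 4 h 4 were higher and 2 lower (12.9% and 32.4% of all genes), and at 24 h 1 was higher and 1 lower (30.6% and 5.54%). THRSP, which drives fat synthesis, fell by 2.83 ± 0.53 at 12 h (adjusted p = 0.00481) and by 2.64 ± 0.53 at 24 h (adjusted p = 0.00557). The receptor NR1I3 fell by 3.37 ± 0.50 at 4 h (adjusted p = 0.00109) and by 2.12 ± 0.50 at 12 h (adjusted p = 0.0126). UPP2 (-2.72, adjusted p = 0.0132), PPARA (-1.68, adjusted p = 0.0315) and POR (-1.22, adjusted p = 0.00948) were lower at 12 h, while WEE1, a brake on entry into mitosis, was higher at 24 h (1.65, adjusted p = 0.00668). Chosen after their values were seen, NOCT (listed as CCRN4L) was lower at 12 h (-1.14, adjusted p = 0.00302), USP2 was lower at 4 h (-1.48, adjusted p = 0.0184), and NAMPT (2.92), LPIN1 (2.01), GYS2 (1.09) and POR (1.08) were higher at 4 h. Of these 14 calls, NR1I3, NAMPT and GYS2 at 4 h and NOCT at 12 h were kept under all 21 alternatives, while THRSP at 12 h (adjusted p = 0.0700) and at 24 h (0.0620) and POR at both times were lost without the Control columns only.

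Glucocorticoid-responsive genes were read because these hormones reset the liver clock. Their list was also chosen with earlier results of these data known, so its counts are a description. Of 11 tested, 6 were called higher and 2 lower at 4 h, 2 and 2 at 12 h, and 1 and 2 at 24 h, the last becoming none higher and 3 lower after rescaling. Of all genes 12.9% were called higher and 32.4% lower at 4 h, 9.03% and 22.5% at 12 h, and 30.6% and 5.54% at 24 h. After rescaling, 874 of the 8459 genes were called higher and 1448 lower at 24 h. FKBP5 rose by 1.84 ± 0.27 at 4 h (adjusted p = 0.00107) and by 1.10 ± 0.27 at 12 h (adjusted p = 0.0148), and ZBTB16 by 1.32 ± 0.28 at 4 h (adjusted p = 0.00550) and 0.89 ± 0.28 at 12 h (adjusted p = 0.0398). The receptor itself, NR3C1, fell at each time, by 0.62, 1.12 and 0.52 (adjusted p = 0.00242, 0.000391 and 0.00662). PCK1 was lower at 12 h (-0.94, adjusted p = 0.0263), though not after rescaling, and DUSP1 at 24 h (-1.14, adjusted p = 0.0290). ZBTB16 was also lower in BF than in Control over the 4 times (-1.36 ± 0.25, adjusted p = 0.0498), and no gene of this list was after rescaling. TSC22D3, chosen after its values were seen, was the other gene lower at 4 h (-1.27, adjusted p = 0.00555). Of these 16 calls, 6 were kept under all 21 alternatives, those of NR3C1 at 4 and 12 h and of FKBP5, IGFBP1, TAT and TDO2 at 4 h.

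The genes whose courses were most like those of 3 members were ranked by Pearson's r of log2(RPKM + 1) over the 12 columns among 8451 genes, as a description. For DBP they were RT1-CE14 (r = 0.94), SQSTM1 (0.94), CAMK2N1 (0.93), DCUN1D4 (0.92) and DNAJC30 (0.91), all 5 highest in Control at 0 h. For NR1D1 they were IRF8 (r = 0.93), RGD1309748 (0.92), CYP2C13 (0.90), PTP4A3 (0.89) and CYP4F6 (0.89), again all highest in Control at 0 h. For ARNTL they were WNT4 (r = 0.88), ZNF295 (0.82), CIZ1 (0.77), TMEM26 (0.76) and STAP2 (0.75), each at its lowest in Control at 0 h, where ARNTL was at 4.72 RPKM. The 12 columns share their normalization and the Control 0 h column weighs on each r.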

How the data were processed

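RNA had been sequenced from whole liver of 3 groups of rats at 4 times, as poly(A) libraries made with the TruSeq kit. The authors converted reads to RPKM and deposited 1 table with 1 column per group and time, which per the file headers combines 2 runs, 1 on RNA of 1 rat and 1 on pooled RNA of 3 rats. The submitters' processing notes name CASAVA, Bowtie 0.12.2 and the builds rn4 and mm8 without a role. The study states that the data in each column were averaged by RPKM. The annotation and any weighting in that average are not given in the sources used here. If it was unweighted, the run of 1 rat counts as much as that of 3 rats. RPKM sums to a share of each library, so an abundant gene such as albumin lowers the others. Replicate spread and read depth are unknown, and no interval was computed.

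Columns were mapped by title. Of 14692 genes, 1 had no value and 2303 were at 0 throughout, and 8459 of the 12388 others had a mean of at least 1 RPKM. Values were taken as log2(RPKM + 1). limma 3.58.1 in R 4.3.3 was fitted with group and time as additive terms (6 residual degrees of freedom) and a variance trend, with Benjamini-Hochberg adjustment over the 8459 genes and a threshold of 0.05. Ratios between 2 single columns have no test, and a log2 ratio of 1 or more in size was counted. Scripts were tested on simulated data. The members and gene lists were chosen with earlier results of these data known. All members are named, then from each further list up to 6 genes that passed at 12 or 24 h by size of ratio, the 5 genes most like each of ARNTL, NR1D1 and DBP, CYP7A1 and the cell markers. Alternatives were a pseudocount of 0.1 RPKM, no filter, columns divided by their median gene, no variance trend, BF and BA exchanged, and leaving out each group or time or the BF column at 12 h. Leaving out each other column, and each group or time that is not part of a contrast's own repeats, and NPAS2 from the mean of the clock genes, was added after seeing the data. Python 3.11.15, numpy 2.4.6, pandas 2.3.3 and matplotlib 3.10.9 were used.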

Additional observations from a re-analysis of the deposited data

Results flagged for a closer look

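In 5 cases a clock gene stood on opposite sides of its 0 h value in a pair of groups, with at least 1 between the log2 ratios. The differences were not tested, as a ratio here comes from only 2 columns. The share of all genes that meet this rule was not computed, so the count of 5 is not read as a result about clock genes. NPAS2, which is among these cases, was below the 1 RPKM filter. PER2 at 12 h was at -1.41 against 0 h in Control, 0.10 in BF and -1.61 in BA, so that Control minus BF came to -1.51 and BF minus BA to 1.72. CRY1 at 4 h was at 0.56 in BF and -0.66 in BA, a difference of 1.22. NPAS2 at 4 h was at -0.78 in Control, -0.52 in BF and 0.56 in BA, so that Control minus BA was -1.34 and BF minus BA -1.08, with no NPAS2 value of these above 2.01 RPKM. PER2 in BF began from a lower 0 h value, 3.51 RPKM beside 8.32 in Control and 8.47 in BA. The BF 12 h column is also the one with acinar markers at 124 RPKM, and the BA 4 h column the one with albumin at 30.9% of all RPKM, and their part in these differences was not tested.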

How the results depend on the processing

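DBP and PER2 at 4 h and DBP at 12 h were called under all 21 alternatives. Not all of these test the size of a change. No filter, no variance trend, and leaving out columns of a time outside a time contrast keep its estimate as it was. They change only the error and the adjustment of p, so a call kept under them says little about the estimate. Without single columns, groups or times, the members called numbered 2 to 5 at 4 h, 1 to 5 at 12 h, 0 to 4 at 24 h and 0 in each contrast between groups, and the genes called 2155 to 3758, 789 to 2982, 752 to 3449, 0 to 77 (BF against Control), 0 to 28 (BA against Control) and 0 to 3 (BF against BA). With no filter 2 genes were called for BF against Control and 0 for BA against Control. With BF and BA exchanged these were 6 and 68, PER2 at 0 h was at 0.023 and -1.05 for BF and BA against Control and 1.07 for BF against BA, NR1D1 at 4 h at -1.40, 0.13 and -1.53, and DBP for BF against BA at -1.21, -1.35 and 1.41 at 4, 12 and 24 h. The members past 2-fold then numbered 1 and 0 at 12 h and 2 and 4 at 24 h for BF and BA against Control. After rescaling they numbered 3 at 24 h in BF, 1 for BA against Control and 0 for BF against BA at 0 h, and CSNK1D at 24 h was at -0.053. With a pseudocount of 0.1 RPKM they numbered 5 for BA against Control at 4 h, 1 for BF against Control at 12 h and 2 for BF against BA at 24 h. The differences from 0 to 24 h between the 2 sets of clock genes, which were 0.56, 1.95 and 1.26 in Control, BF and BA, ranged from 0.25 (without CLOCK and CRY1) to 0.85 (without NPAS2), 1.54 to 2.26 and 1.01 to 1.40 over 4 other choices of genes or pseudocount. No paired analysis was possible because each group and time has 1 column, other than the additive fit itself, which takes group as the block of the time contrasts and time as that of the group contrasts. Depth is unknown, so what the low values of NPAS2 can show is unknown too.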
